A study of Mus musculus with 9 samples.

Results

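The genes described are those of cholesterol and fatty acid synthesis, 27 listed members of which 26 have a row among the 22942 rows of the deposited RNA table. Members were taken by gene symbol, and Scd2 was the member without a matching row. The cells were mouse bone marrow mononuclear cells of strain B6.SJL (CD45.1). MLL-AF9 cells had received the retroviral constructs MSCVneo-MLL-AF9 and MSCVpuro, and control cells the empty vectors MSCVneo and MSCVpuro, so both groups carried the puromycin vector and a neomycin vector. MLL-AF9 is a fusion oncoprotein that joins part of MLL, a chromatin regulator, to AF9 and drives acute leukemia. PolyA RNA was sequenced from 3 MLL-AF9 and 3 control libraries, and the table holds 1 pooled value per gene and group, taken as FPKM (fragments scaled to transcript length and to library size). Age, time after transduction and whether libraries came from separate animals are not given in the labels, and the spread between libraries and the reads behind each value are unknown. No standard deviation can therefore stand beside a level, and the p-values and q-values are the authors' own.

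Cells make cholesterol from acetyl-CoA through mevalonate, farnesyl pyrophosphate, squalene and lanosterol, and make fatty acids from the same acetyl-CoA by carboxylation, chain assembly, elongation and desaturation. The SREBP transcription factors, encoded by Srebf1 and Srebf2, are held in the endoplasmic reticulum by Insig proteins when sterol is plentiful and switch on most of these enzymes when it is scarce. Growing blood cells use both routes to build membranes, and farnesyl pyrophosphate is also the source of the lipid anchors of small GTPases.

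For most members the authors' comparison did not separate MLL-AF9 from control cells, and 1 gene was higher and 1 lower, both in the fatty acid arm. Fasn, which encodes fatty acid synthase, rose to 16.4 FPKM in MLL-AF9 cells, against 4.86 FPKM in control cells. Scd1, the desaturase that turns saturated into monounsaturated fatty acids, fell to 0.862 FPKM in MLL-AF9 cells, against 18.5 FPKM in control cells. A gene was called where the authors' q-value was under 0.05 and the mean of both groups at least 1 FPKM. Of the 25 members that reached this mean, 1 was called higher and 1 lower, or 8%, whereas 10.3% of the 11538 genes tested were called, 5.13% as higher and 5.2% as lower. The share of called members was thus close to that of all genes. Scd1 reached the mean through its control value alone.

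The promoters below are examples, Fasn as the member that rose, Lss as a member with an unadjusted p under 0.05, and Hmgcs1 as the member with a sterol element. They were picked for these traits and do not stand for the module as a whole. Capitals mark CCAAT, the NF-Y box, in Fasn, and CCAAT and GGGCGG, the GC box, in Lss, each on either strand, so that ATTGG and CCGCCC are the reverse complements. In Hmgcs1 they mark TCACNCCAC, a core of the sterol regulatory element bound by SREBP. Sequences are from RefSeq in build GRCm38.p6, with 250 bases before and 50 after the gene's start for Fasn (chr11:120824498-120824797, minus strand) and Lss (chr10:76531355-76531654, plus strand), and 49 bases for Hmgcs1 (chr13:119690194-119690242, plus strand).
Fasn: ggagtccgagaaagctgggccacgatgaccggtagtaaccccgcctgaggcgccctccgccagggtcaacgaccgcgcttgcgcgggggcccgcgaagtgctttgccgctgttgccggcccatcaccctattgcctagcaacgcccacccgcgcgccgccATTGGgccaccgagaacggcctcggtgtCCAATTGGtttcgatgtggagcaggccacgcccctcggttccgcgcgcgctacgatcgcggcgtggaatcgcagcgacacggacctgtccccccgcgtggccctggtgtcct
Lss: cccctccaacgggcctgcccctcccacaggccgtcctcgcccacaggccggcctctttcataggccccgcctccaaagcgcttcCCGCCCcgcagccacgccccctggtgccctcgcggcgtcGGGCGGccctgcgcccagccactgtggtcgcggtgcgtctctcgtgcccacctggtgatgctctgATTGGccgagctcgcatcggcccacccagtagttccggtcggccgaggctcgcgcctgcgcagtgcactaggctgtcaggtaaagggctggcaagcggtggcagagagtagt
Hmgcs1: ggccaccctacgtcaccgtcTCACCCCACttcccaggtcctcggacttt

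In the Fasn window, 3 CCAAT boxes began 90, 62 and 59 bases before the start, the last pair on opposite strands and overlapping. The Lss window held 1 CCAAT box 62 bases before the start and GC boxes 166 and 127 bases before it. The Hmgcs1 element began 137 bases before the start, between CCAAT boxes 176 and 45 bases before it.

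RefSeq promoters were matched for 21 of the 27 members, with 27 windows in all, since some genes have several starts. Fdps, Fdft1, Sqle, Stard4, Scd1 and Scd2 were not matched. CCAAT was found in 19 of the 27 member windows (70.4%), compared with 37.4% of all 32851 windows and 38.8% of the 9457 windows of genes tested here. GGGCGG was found in the same number of member windows (70.4%), compared with 35.7% of all windows and 62.4% of those of tested genes. TCACNCCAC was found in 1 member window (3.7%, that of Hmgcs1), compared with 1.24% of all windows and 1.1% of those of tested genes. The longer SRE-1 element, which contains this core, was found in 0 member windows and 0.0913% of all windows. The E-box CACGTG, which reads the same on both strands, was found in 4 member windows (14.8%), those of Dhcr7, Elovl5, Hsd17b7 and Insig1, compared with 7.15% of all windows and 10.4% of those of tested genes. Both strands were searched, and a match describes letters in a window and not a bound site.

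In the mevalonate arm, none of 6 members that reached the mean was called and 1, Fdps, had an unadjusted p under 0.05. Fdps, which encodes farnesyl pyrophosphate synthase at the branch point to sterols and prenyl groups, was listed at 107 FPKM in MLL-AF9 cells and 42.8 FPKM in control cells. This 2.49-fold ratio had p = 0.0095 but q = 0.0762 in the authors' deposited table, outside the threshold. By FPKM, which is per transcript length, Fdps was the highest of the 25 members in MLL-AF9 cells and the third in control cells. It made up 62.9% of the summed FPKM of the mevalonate arm in MLL-AF9 cells and 42.6% in control cells. Without Fdps the arm summed to 63.0 FPKM in MLL-AF9 cells and 57.7 FPKM in control cells, so the rest of the arm was at similar summed levels.

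The enzymes before Fdps were at moderate levels in both groups. Acat2, the cytosolic thiolase that joins acetyl-CoA units, was at 14.8 FPKM in MLL-AF9 cells and 10.1 FPKM in control cells. Its close copy Acat3 was at 3.36 FPKM in MLL-AF9 cells and 1.68 FPKM in control cells, and reads shared between them were not tested. Hmgcs1, which makes HMG-CoA, was listed at 0 in both groups with p = 1 in the authors' deposited table, and no level is inferred from that entry. None of the 90 rows named as ribosomal protein genes was listed at 0 in both groups, although 5363 rows of the table were. These counts do not show whether the entry of Hmgcs1 reflects a true absence of its RNA. Mvk, the mevalonate kinase, was at 7.38 FPKM in MLL-AF9 cells and 4.45 FPKM in control cells. Pmvk, the next kinase, was almost level, with 17.2 FPKM in MLL-AF9 cells and 17.3 FPKM in control cells. Mvd, the decarboxylase that follows, had the lower value in MLL-AF9 cells, at 8.42 FPKM against 13.96 FPKM in control cells, with q = 0.439 in the authors' deposited table. Idi1, the isomerase that balances the isoprene units for Fdps, was at 15.2 FPKM in MLL-AF9 cells and 11.9 FPKM in control cells. Successive enzymes of the arm therefore differed in sign, with log2 changes between -0.67 for Mvd and 1.30 for Fdps. Log2 changes here and below compare FPKM + 1 of MLL-AF9 cells with that of control cells, a scale that understates the change of low genes.

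**Figure D1:**
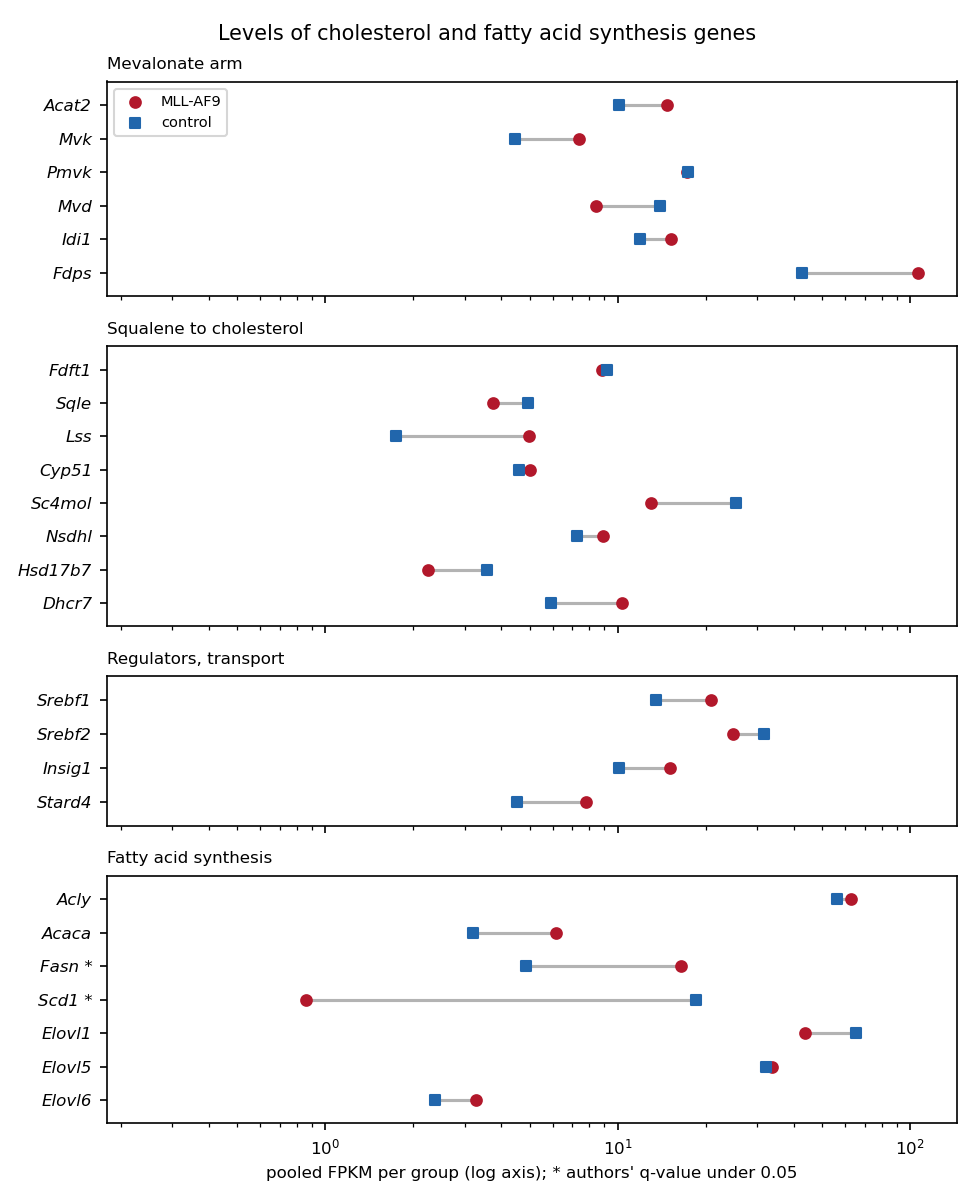
Pooled FPKM of the 25 members that reached the mean, on a log axis, grouped by role, with MLL-AF9 as red circles and control as blue squares and 1 value per group. Fasn and Scd1, marked by an asterisk, are the members with a q-value under 0.05, and Scd1 has the widest gap, with 0.862 FPKM in MLL-AF9 cells and 18.5 FPKM in control cells.

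From squalene to cholesterol, none of 8 members was called and 1 (Lss) had an unadjusted p under 0.05. The log2 changes were above 0 for 4 members and below 0 for 4. Against the median of all tested genes, 0.29, 2 members lay above and 6 below. Fdft1, the squalene synthase that commits farnesyl units to sterols, was nearly level, at 8.85 FPKM in MLL-AF9 cells and 9.15 FPKM in control cells. Sqle, the squalene epoxidase and a slow step of the route, was at 3.74 FPKM in MLL-AF9 cells and 4.93 FPKM in control cells. Lss, the lanosterol synthase that closes the sterol rings, was at 4.99 FPKM in MLL-AF9 cells and 1.75 FPKM in control cells, a 2.85-fold ratio with p = 0.0471 and q = 0.222 in the authors' deposited table. Lss was the lowest member of all in control cells, below Sqle, whereas it was above Sqle in MLL-AF9 cells. The ratio of Lss to Sqle was 1.33 in MLL-AF9 and 0.355 in control cells.

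The later sterol enzymes did not share a direction. Cyp51, the lanosterol demethylase, was at 5.00 FPKM in MLL-AF9 cells and 4.59 FPKM in control cells. Sc4mol, now called Msmo1, the methyl sterol oxidase of a later step, was at 13.0 FPKM in MLL-AF9 cells and 25.4 FPKM in control cells. It had p = 0.0916 and q = 0.338 in the authors' deposited table. Its partners in the same demethylation were Nsdhl, at 8.92 FPKM in MLL-AF9 cells and 7.28 FPKM in control cells, and Hsd17b7. Hsd17b7, the ketoreductase, was at 2.24 FPKM in MLL-AF9 cells and 3.58 FPKM in control cells. Within this complex of steps, Sc4mol and Hsd17b7 had negative log2 changes of -0.92 and -0.50 and Nsdhl a positive one of 0.26. Relative to the median of all tested genes, Nsdhl was at -0.035, so it too lay below that median. Dhcr7, which carries out the last reduction to cholesterol, was at 10.4 FPKM in MLL-AF9 cells and 5.93 FPKM in control cells, with q = 0.487 in the authors' deposited table.

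Of the 4 regulators and transporters, none was called and 0 had an unadjusted p under 0.05 in the authors' deposited table. Srebf1, the SREBP gene linked mainly to fatty acid synthesis, was at 20.8 FPKM in MLL-AF9 cells and 13.6 FPKM in control cells. Srebf2, linked mainly to sterol synthesis, was at 24.7 FPKM in MLL-AF9 cells and 31.5 FPKM in control cells. Srebf2 had the higher level in both groups, but the ratio of Srebf1 to Srebf2 was 0.842 in MLL-AF9 cells and 0.431 in control cells, a description of pooled values with no error. Insig1, the sterol-sensitive retention protein and itself an SREBP target, was at 15.1 FPKM in MLL-AF9 cells and 10.1 FPKM in control cells. Stard4, a carrier of cholesterol between membranes, was at 7.82 FPKM in MLL-AF9 cells and 4.53 FPKM in control cells. The transcript level of an SREBP gene does not show how much of the protein is cleaved and active.

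The fatty acid arm held the 2 called genes among 7 members with a row. Acly, which splits citrate into cytosolic acetyl-CoA and so feeds both routes, was high and nearly level, at 62.7 FPKM in MLL-AF9 cells and 56.0 FPKM in control cells. Acaca, the acetyl-CoA carboxylase that makes malonyl-CoA, was at 6.13 FPKM in MLL-AF9 cells and 3.20 FPKM in control cells, with p = 0.0843 and q = 0.321 in the authors' deposited table. Fasn, which assembles palmitate from malonyl-CoA, was 3.38-fold higher in MLL-AF9 cells, with a log2 change of 1.57 and q = 0.0105 in the authors' deposited table. Among the 592 genes called higher, its rise ranked 343. In MLL-AF9 cells Fasn thus stood 8th by level among the members, and 18th in control cells.

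Scd1 was 21.5-fold lower in MLL-AF9 cells, with a log2 change of -3.39 and q = 2.75e-07 in the authors' deposited table. Its fall ranked 74 among the 600 genes called lower, and it was the lowest of the 25 members in MLL-AF9 cells but the 7th highest in control cells. The desaturase copies Scd3 and Scd4 were low in both groups, with 0.686 and 0.567 FPKM for MLL-AF9 cells and 0.322 and 0.344 FPKM for control cells. Scd1 made up 40.8% of the FPKM of these 3 desaturase genes in MLL-AF9 cells and 96.5% in control cells. This share leaves out Scd2, which had no matching row, and reads shared between the copies were not tested. In bulk samples such as these, fewer cells of a type and less RNA per cell cannot be told apart.

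The elongases were not called, and their log2 changes differed in sign, from -0.57 for Elovl1 to 0.34 for Elovl6. Elovl1, which lengthens saturated and monounsaturated chains, was at 43.6 FPKM in MLL-AF9 cells and 65.1 FPKM in control cells, with q = 0.484 in the authors' deposited table. It was the member with the highest level in control cells and the third in MLL-AF9 cells. Elovl5, which acts on polyunsaturated chains, was almost level at 33.7 FPKM in MLL-AF9 cells and 32.2 FPKM in control cells. Elovl6, which lengthens palmitate to stearate, a substrate of Scd1, was at 3.27 FPKM in MLL-AF9 cells and 2.37 FPKM in control cells.

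Across the 25 members, 16 had a log2 change above 0 and 9 below, and the median was 0.26. The median of all 11538 tested genes was 0.29, and 68.7% of these genes lay above 0, so the members are to be read against that shift. Relative to it, 12 members lay above and 13 below. After centring on that median, 4 of the 25 members changed sign, and the median of the members became -0.03. Unadjusted p-values under 0.05 were found for 4 members (Fasn, Scd1, Fdps and Lss), or 16%, compared with 19.8% of all tested genes in the authors' deposited table. The same 4 members, or 16%, were those with a log2 change of at least 1 in size, compared with 19.3% of all tested genes. The summed level of the 25 members was 462 FPKM in MLL-AF9 cells and 405 FPKM in control cells, and Fdps, Acly and Elovl1 together made up 46.1% of it in MLL-AF9 cells and 40.4% in control cells. The order of the members' levels in the 2 groups had a Spearman correlation of 0.75 over these 25 genes and of 0.88 over the 24 without Scd1, beside 0.86 over all tested genes, a description across genes that are not replicates.

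**Figure D2:**
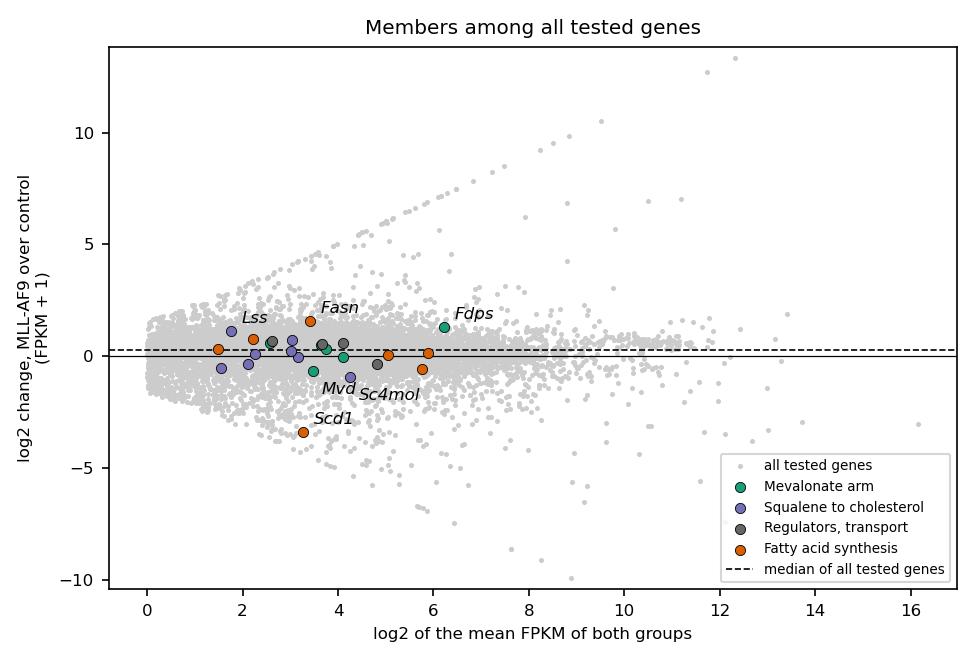
Log2 change (FPKM + 1, MLL-AF9 over control) of the members, coloured by role, against log2 of the mean FPKM of both groups, with all 11538 tested genes in grey. The members lie on both sides of the dashed median of all genes at 0.29, between -0.92 for Sc4mol and 1.57 for Fasn, with Scd1 below them at -3.39.

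Genes elsewhere in sterol metabolism were mostly not called either. The same holds for all tested genes, of which 10.3% were called, and the list counts below are to be read beside that share. Of 6 other sterol enzymes that reached the mean, 0 were called and 0 had an unadjusted p under 0.05 in the authors' deposited table. Aacs, which activates acetoacetate for lipid synthesis, was at 14.1 FPKM in MLL-AF9 cells and 22.9 FPKM in control cells. The median log2 change of the 6 was -0.25.

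Of 9 genes of sterol sensing and uptake, 0 were called and 1 had an unadjusted p under 0.05 in the authors' deposited table. This was Mbtps1, the first protease that cleaves SREBP, at 34.2 FPKM in MLL-AF9 cells and 17.3 FPKM in control cells, with q = 0.198 in the authors' deposited table. Mbtps2, the protease of the following cut, was at 8.30 FPKM in MLL-AF9 cells and 4.34 FPKM in control cells. The list median was 0.14.

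Of 13 genes of the isoprenoid branches, which use the products of Fdps, 0 were called higher and 1 lower, with a median of 0.28. Zmpste24, the protease that trims farnesylated prelamin A, fell to 26.5 FPKM in MLL-AF9 cells, against 83.6 FPKM in control cells, 3.15-fold lower with q = 0.0217 in the authors' deposited table. Zmpste24 acts on a prenylated protein and makes no isoprenoid itself. Pggt1b, a subunit of the geranylgeranyl transferase that attaches lipid anchors to GTPases, was at 12.9 FPKM in MLL-AF9 cells and 4.83 FPKM in control cells, with p = 0.0217 and q = 0.135 in the authors' deposited table.

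Of 11 other genes of fatty acid synthesis, 1 was called higher and 0 lower, with a median of 0.38. Fads3, a member of the fatty acid desaturase cluster, rose to 6.46 FPKM in MLL-AF9 cells, against 1.30 FPKM in control cells, with q = 0.0282 in the authors' deposited table. With a minimum mean of 5 FPKM this gene was no longer tested. Its family member Fads2 was at 9.17 FPKM in MLL-AF9 cells and 3.99 FPKM in control cells and was not called. Mid1ip1, which promotes the activity of acetyl-CoA carboxylase, was at 26.8 FPKM in MLL-AF9 cells and 54.0 FPKM in control cells, with p = 0.0116 and q = 0.0882 in the authors' deposited table.

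Among 12 genes that activate fatty acids or esterify them, 0 were called higher and 2 lower, with a median of -0.33. Dgat1, which catalyses the last step of triglyceride synthesis, fell to 50.0 FPKM in MLL-AF9 cells, against 168 FPKM in control cells, 3.37-fold lower with q = 0.0131 in the authors' deposited table. Agpat4, an acyltransferase of phospholipid synthesis, fell to 2.26 FPKM in MLL-AF9 cells, against 10.5 FPKM in control cells, 4.67-fold lower with q = 0.0455 in the authors' deposited table. Dgat2 and Agpat2, further acyltransferases of the same steps, had unadjusted p-values of 0.0188 and 0.0204 in the authors' deposited table without being called. Dgat2 was at 16.9 FPKM in MLL-AF9 cells and 40.3 FPKM in control cells, and Agpat2 at 39.4 FPKM in MLL-AF9 cells and 96.2 FPKM in control cells.

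Of 14 genes of fatty acid oxidation, the opposite route, 0 were called and 0 had an unadjusted p under 0.05 in the authors' deposited table, with a median of -0.01. The carnitine carrier Slc25a20 was at 14.2 FPKM in MLL-AF9 cells and 29.0 FPKM in control cells, and Echs1, a hydratase of the oxidation cycle, at 66.5 FPKM in MLL-AF9 cells and 38.3 FPKM in control cells. Of 11 genes of sterol efflux and storage, 0 were called higher and 1, Apoe, lower, with a median of -0.18. Apoe, a lipoprotein that carries sterol out of macrophages, was at 23.8 FPKM in MLL-AF9 cells and 201 FPKM in control cells, 8.46-fold lower with q = 2.82e-06 in the authors' deposited table. Abca1, an exporter and target of the sterol-sensing LXR receptors, was at 1.06 FPKM in MLL-AF9 cells and 2.04 FPKM in control cells without being called. Of 12 cell division genes, 0 were called and 1, the mitotic kinase gene Bub1 with q = 0.0612 in the authors' deposited table, had an unadjusted p under 0.05, while their median was 0.53. All 12 had a log2 change above 0, as had 68.7% of tested genes, and 9 of the 12 lay above the median of all tested genes.

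**Figure D3:**
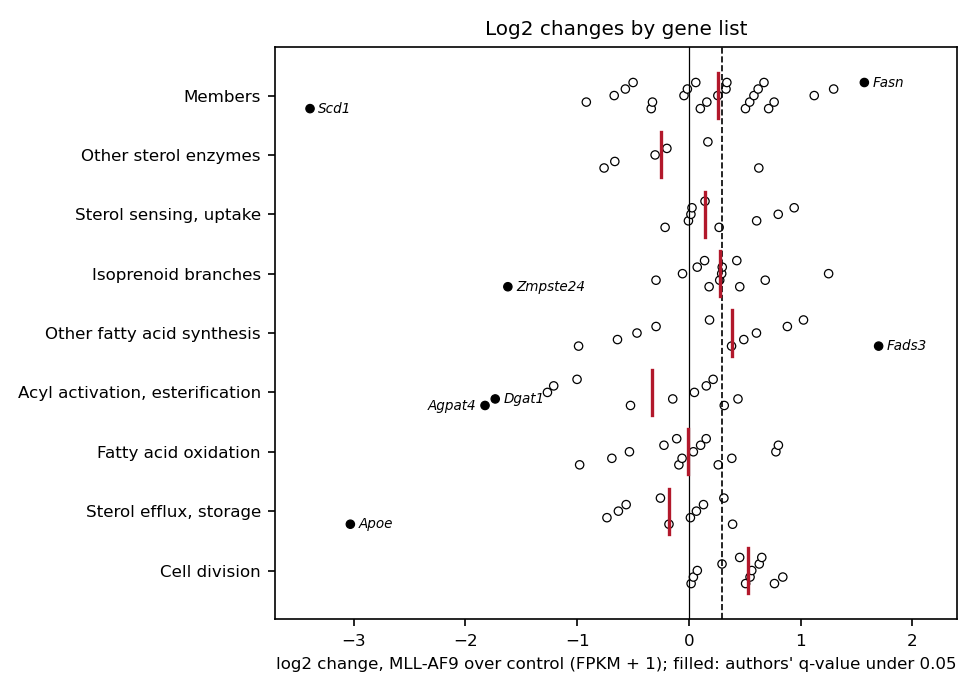
Log2 change (FPKM + 1, MLL-AF9 over control) of each gene that reached a mean of 1 FPKM, by list, with filled points for a q-value under 0.05, a red bar at the list's median and a dashed line at the median of all tested genes, 0.29. Called genes are few in each list, as among all tested genes (10.3%), and the median of the members, 0.26, lies beside the dashed line.

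Markers of mature marrow cells moved in the same comparison. All 8 late granulocyte markers fell, with a summed level of 5664 FPKM in MLL-AF9 cells and 64082 FPKM in control cells, as did all 6 B lymphoid markers (34.0 FPKM in MLL-AF9 cells and 636 FPKM in control cells) and all 6 T and NK markers (24.1 FPKM in MLL-AF9 cells and 167 FPKM in control cells). Of 6 erythroid markers 5 were called lower. The remaining marker, Tfrc, was not called and had the higher value in MLL-AF9 cells, at 50.7 FPKM against 26.8 FPKM in control cells. Of 8 monocyte and macrophage markers 3 were called lower, namely C1qa, C1qb and C1qc. Of these 8, 5 had a log2 change below 0 and 3 above, Csf1r, Adgre1 and Cd68. Of 5 general marrow leukocyte markers 0 were called, and these were at 142 to 861 FPKM in MLL-AF9 cells and 257 to 1961 FPKM in control cells. Their median log2 change was -0.76, with 4 below 0 and 1 above. The lowest of these changes was that of Cd52, with q = 0.0507 in the authors' deposited table. Adipocytes are rich in Scd1 and Dgat1, and of 6 adipocyte markers 1, Fabp4, reached the mean. Fabp4 had q = 0.0507 in the authors' deposited table, at 2.04 FPKM in MLL-AF9 cells and 12.7 FPKM in control cells. The defining adipocyte gene Adipoq was at 0.0928 FPKM in MLL-AF9 cells and 1.34 FPKM in control cells, under the minimum mean but with q = 0.00769 in the authors' deposited table. Plin1 and Cidec were listed at 0 in MLL-AF9 cells and at 0.0154 and 0.0170 FPKM in control cells. Values of the remaining pair ran the other way, Cfd with 0.531 FPKM in MLL-AF9 cells and 0.177 FPKM in control cells and Lep with 0.0104 FPKM in MLL-AF9 cells and 0 in control cells. The 6 adipocyte markers summed to 2.67 FPKM in MLL-AF9 cells and 14.3 FPKM in control cells. Fabp4 alone gave 2.04 FPKM of this sum in MLL-AF9 cells and 12.7 FPKM in control cells. The part of these cell types in the falls of Scd1, Dgat1, Agpat4, Zmpste24 and Apoe was not tested.

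**Figure D4:**
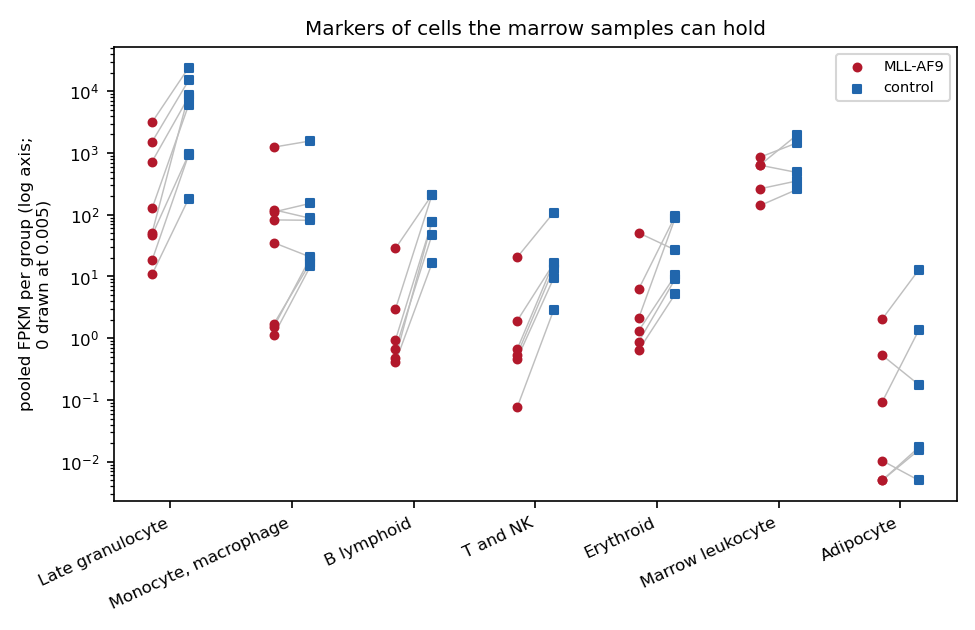
Pooled FPKM of marker genes by cell type on a log axis, with MLL-AF9 as red circles left of control as blue squares and a line joining the 2 values of a gene; a value of 0 is drawn at 0.005. Late granulocyte, B lymphoid and T and NK markers are lower in MLL-AF9 cells throughout. The adipocyte genes Plin1 and Cidec are at 0 in MLL-AF9 cells and at 0.0154 and 0.0170 FPKM in control cells. Cfd and Lep have the higher value in MLL-AF9 cells.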

How the data were processed

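PolyA RNA of bone marrow mononuclear cells was sequenced by the submitters from 3 MLL-AF9 and 3 control samples, grouped by their titles. The labels' protocols speak of duplicates per genotype, so which libraries entered the pooled values is not known. Per the submitters' processing notes, the tools include TopHat 1.4.1 and Cufflinks 1.3.0, with build mm9. Their settings were not given in the sources used here. RNA values deposited by the authors are 1 per gene and group and were taken as FPKM, inferred from the tools and the values since the header names no unit. The p-value and q-value of each row are the authors' own, and, per the file headers, the test behind them is unnamed.

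No test was computed anew, since no values per library are in the table. S100a9 has 0 FPKM for control and a p-value of 1, and was left out as a failed estimate. Genes whose mean reached 1 FPKM were tested, and a q-value under 0.05 was a call. The pseudocount was 1. Members and lists were chosen with earlier results of these data known. All members are named, with the called genes of each other list or, where none was called, its 2 smallest q-values among tested genes; Fads2, Mid1ip1, Pggt1b, Dgat2, Agpat2, Abca1 and the desaturase and thiolase copies were added after their values were seen. A gene taken by this rule may be left unnamed and is then not reported here. The 5hmC lists are in mm9, for which no annotation was used here, so they were not analysed. The functions were tested on simulated data. Python 3.11.15, pandas 2.3.3 and numpy 2.4.6 were used.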

Additional observations from a re-analysis of the deposited data

How the results depend on the processing

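Both called members kept their calls with a further 2-fold minimum and with Benjamini-Hochberg adjustment over the tested genes alone. A call rests on the authors' q-value and the mean FPKM, so a pseudocount of 0.1, median centring and quantile normalization cannot change it, and the direction of both members was the same under them. Their means also pass with no filter and with a minimum of 5 FPKM. The median log2 change of the members, 0.26, became -0.035 under median centring and 0.024 under quantile normalization, which bring the shift of 0.29 over all tested genes to 0 and 0.082. By the same construction the median of the sterol sensing and uptake list became -0.15 and -0.033, and that of the isoprenoid list -0.018 and -0.0023. Under median centring the medians became -0.54 for other sterol enzymes, 0.088 for other fatty acid synthesis, -0.63 for activation and esterification, -0.30 for oxidation, -0.47 for efflux and storage and 0.23 for cell division. Without a filter 6.28% of 22941 rows were called. Leaving out a replicate could not be run, since the table holds pooled values. No paired analysis was possible because the columns carry no replicate. The reads behind each value are unknown, so the precision of low levels such as that of Scd1 in MLL-AF9 cells cannot be given.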

Other observations

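The pair of called members changed their balance: the ratio of Fasn to Scd1 was 19.0 in MLL-AF9 cells and 0.263 in control cells, as a ratio of pooled FPKM with no error and with both genes chosen for their calls.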
